A study of Mus musculus with 2 samples.

Results

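The 10 stem cell associated genes other than CD44 were examined in mouse prostate tumors: *Sox9*, *Klf4*, *Bmi1*, *Ly6a*, *Itga6*, *Aldh1a1*, *Aldh1a3*, *Prom1*, *Nanog* and *Pou5f1*, which are 10 of the 32285 genes listed in the count matrices. They were listed by name, with earlier results of these data known. The RM-1 line of mouse prostate cancer had been grown as orthotopic tumors in mice recorded as wild type. Of the tumor libraries, 1 came from a vehicle-treated animal (control) and 1 from an animal given enzalutamide (ENZ), an androgen receptor antagonist, and both were measured by droplet-based scRNA-seq. Immune cells had been enriched with an isolation kit before they were stained for CD45, so the mix of cells in a library is not that of the tumor. With 1 library per condition, the treatment, the animal and the library cannot be told apart and no test between conditions was possible. All intervals below are 95% intervals that cover counting error only.

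Stem cell associated genes act at several levels of a cell. Sox9, Klf4, Nanog and Pou5f1 (Oct4) are transcription factors, and Bmi1 is a subunit of the Polycomb repressive complex PRC1, which silences genes through chromatin. Ly6a (Sca-1), Itga6 (integrin alpha 6, a laminin receptor chain also known as CD49f) and Prom1 (CD133) are surface proteins by which stem and progenitor cells of the mouse prostate and other tissues are sorted, whereas Aldh1a1 and Aldh1a3 are aldehyde dehydrogenases that make retinoic acid. None of these genes marks stem cells alone, and Ly6a and Klf4 in particular are also used by stromal and myeloid cells.

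Cancer cells were taken as barcodes with at least 8000 UMIs (unique molecular identifiers, 1 per captured RNA molecule), at most 20% mitochondrial UMIs, at most 1 UMI of *Ptprc* (CD45) and at least 5 UMIs over *Cacna2d1*, *Rbfox2*, *Kif21a* and *Rhox5*. This gave 3807 cells in the control library and 4290 in the ENZ library. A cell counted as dividing when *Top2a*, *Mki67*, *Cenpf* and *Ube2c* together had 10 or more UMIs, which held for 1249 control and 1209 ENZ cells and left 2558 and 3081 non-dividing cells. Immune cells were barcodes with at least 2 *Ptprc* UMIs, at least 500 UMIs in all and at most 20% mitochondrial UMIs, 4804 in the control library and 3472 in the ENZ library. The median depth was 18051 and 19389 UMIs in non-dividing cells, 32322 and 34100 in dividing cells, and 4864 and 4905 in immune cells. Near the limits, 24 cells in each library had only 5 or 6 marker UMIs, 91 control and 74 ENZ cells were just inside the dividing class at 10 to 12 UMIs, and 1399 and 912 immune barcodes had exactly 2 *Ptprc* UMIs. The libraries shared 8 cancer cell and 4 immune cell barcodes.

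The cancer gate also held stromal cells. Of its cells, 60 control and 63 ENZ cells had 100 or more UMIs over 6 fibroblast genes (*Col1a1*, *Col1a2*, *Col3a1*, *Dcn*, *Lum* and *Pdgfra*), with a median of 663 and 715 such UMIs. Their median *Rhox5* was 0.5 and 1 UMI, against 22 and 19 UMIs in the rest of the gate. A further 12 and 16 cells had 20 or more UMIs of endothelial genes. These cells are therefore cancer cells by the gate but not by their markers, and results that rest on them are given with and without them. The immune gate was mixed as well: 443 control and 210 ENZ barcodes (9.22% and 6.05%) also carried 5 or more cancer marker UMIs, and because they were deep they held 40.2% and 27.8% of the UMIs of the class. Cancer cells kept keratin (*Krt8*, at 441 and 525 CPM in non-dividing cells) but had 0 UMIs of the prostate luminal gene *Pbsn* in either library.

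Levels are given as CPM, the UMIs of a gene scaled to 1000000 UMIs of the class. Of the members, 5 were above the level of 10 CPM used as a minimum for comparison, and the other 5 were below it in cancer cells. In non-dividing cells, *Sox9* stood at 113 CPM in the control library (95% interval 110 to 116) and 106 CPM in the ENZ library (103 to 108). *Sox9*, a factor of progenitors in prostate epithelium and cartilage, lies at chr11:112782224-112787760 (mm10, plus strand). *Klf4*, a zinc-finger factor of differentiated epithelium and of reprogramming, stood at 29.8 CPM (28.3 to 31.3) and 36.5 CPM (35.1 to 38.0). *Bmi1* was at 27.6 CPM (26.2 to 29.0) and 31.6 CPM (30.2 to 32.9). *Ly6a* and *Itga6* code for the surface proteins by which prostate progenitors are sorted. *Ly6a* reached 184 CPM (180 to 187) and 169 CPM (166 to 173), and *Itga6* reached 110 CPM (108 to 113) and 134 CPM (131 to 137). The counts come from the 3' ends of transcripts, so a difference between genes is not a ratio of molecules free of capture effects, and genes are not ranked against each other. *Ly6a* belongs to a cluster of similar genes on chromosome 15, and reads that such copies share could have been split by the counting.

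**Figure D1:**
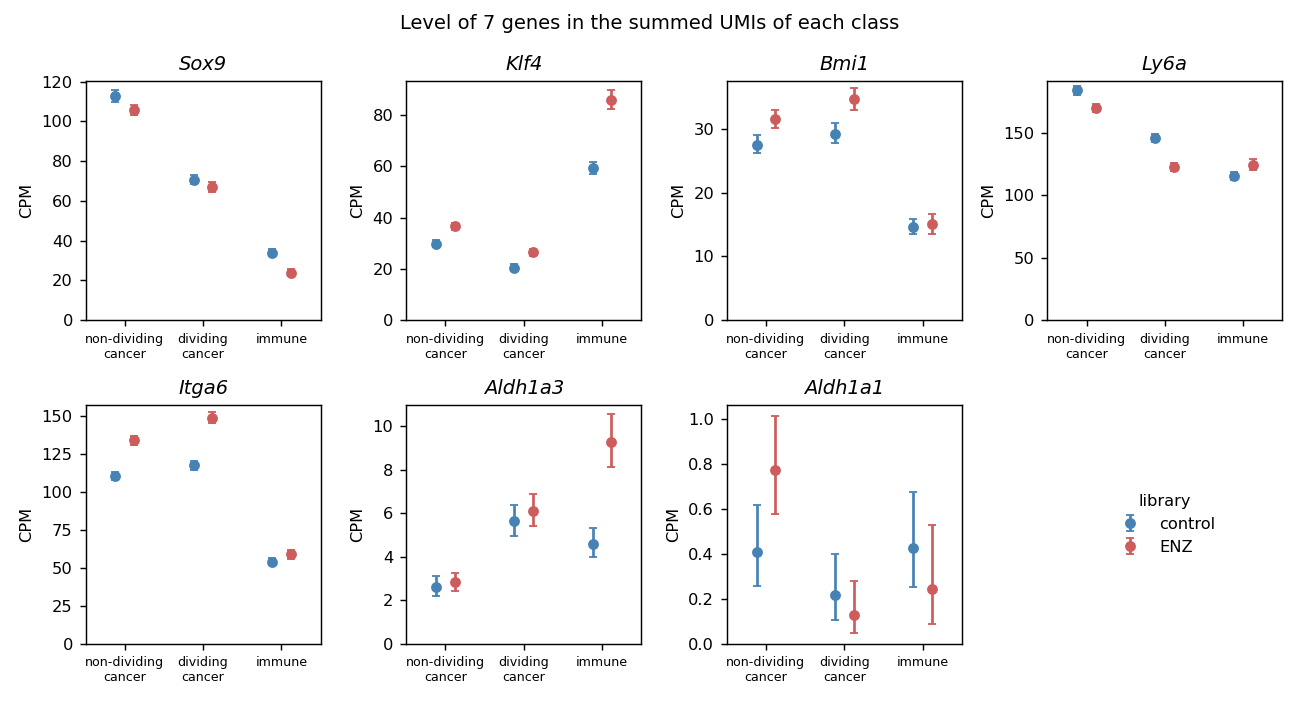
Level (CPM, linear axis from 0) of 7 members in the summed UMIs of non-dividing cancer, dividing cancer and immune cells of the control (blue) and ENZ (red) libraries, with exact 95% Poisson intervals of 1 library each. *Sox9* was highest in non-dividing cancer cells at 113 and 106 CPM, *Klf4* was highest in immune cells, and *Aldh1a1* stayed below 1 CPM in every class.

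The remaining members gave few molecules. *Aldh1a3* had 142 UMIs in the 2558 non-dividing control cells and 190 in the 3081 ENZ cells, or 2.63 and 2.83 CPM. *Aldh1a1* had 22 and 52 UMIs there (0.41 and 0.77 CPM). Most *Aldh1a1* was in the fibroblast-marker cells, which held 24 of the 32 UMIs in the control cancer gate and 48 of the 58 in the ENZ gate. Without the stromal cells, *Aldh1a1* had 8 UMIs in 3736 control cells and 10 UMIs in 4212 ENZ cells. *Pou5f1* gave 9 UMIs in non-dividing cells of each library, and *Nanog* gave 1 in each. *Prom1*, the gene of CD133, had 1 and 4 UMIs in non-dividing cells and 19 and 1 in dividing cells. Of those 19 *Prom1* UMIs, 16 came from 1 cell. Some of these genes also share their locus or sequence with others: *Prom1*, *Pou5f1* and *Aldh1a1* overlap listed antisense genes, *Itga6* overlaps *Gm13663* and *Gm13662* on its own strand, and *Nanog* has processed copies elsewhere in the genome, which makes single counts uncertain.

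Promoter sequence bears on these levels only as a description, and it is shown for *Klf4* and *Bmi1*, which were above the minimum level, and for *Aldh1a1*, which was below it. RefSeq windows were matched for 6 members (*Bmi1*, *Klf4*, *Prom1*, *Nanog*, *Pou5f1* and *Aldh1a1*) and not for *Sox9*, *Ly6a*, *Itga6* and *Aldh1a3*. CREB, a factor the study asked about, binds cAMP response elements, and the windows were searched on both strands for its full motif TGACGTCA and for the shorter TGACG, which the full motif contains. The GC box GGGCGG and the TATA motif TATAAA were added after the data had been seen. Sequences are from GRCm38.p6, 5′ to 3′ on the gene's strand, and end 1 base before the RefSeq start. Capitals mark a motif match on either strand, so CGTCA is a reverse match of TGACG and CCGCCC one of GGGCGG.
Klf4, chr4:55532476-55532725, minus strand: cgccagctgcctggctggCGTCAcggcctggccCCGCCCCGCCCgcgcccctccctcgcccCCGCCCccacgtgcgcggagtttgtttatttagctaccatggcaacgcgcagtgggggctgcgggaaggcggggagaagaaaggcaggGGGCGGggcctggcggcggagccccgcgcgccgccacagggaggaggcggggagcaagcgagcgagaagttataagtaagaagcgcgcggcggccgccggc
Bmi1, chr2:18676768-18677017, plus strand: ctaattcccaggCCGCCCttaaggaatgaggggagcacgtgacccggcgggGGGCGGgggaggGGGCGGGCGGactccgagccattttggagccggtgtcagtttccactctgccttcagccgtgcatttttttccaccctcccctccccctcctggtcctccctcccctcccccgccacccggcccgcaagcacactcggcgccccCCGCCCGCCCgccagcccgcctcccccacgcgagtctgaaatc
Aldh1a1, chr19:20492333-20492582, plus strand: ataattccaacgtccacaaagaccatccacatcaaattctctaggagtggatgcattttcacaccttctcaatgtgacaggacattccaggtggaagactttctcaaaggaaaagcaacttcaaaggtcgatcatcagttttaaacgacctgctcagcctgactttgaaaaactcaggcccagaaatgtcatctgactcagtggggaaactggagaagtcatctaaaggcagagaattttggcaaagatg

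The *Klf4* window had 32 CpG dinucleotides, 1 TGACG match 232 bases before the start and 4 GGGCGG matches. The *Bmi1* window had 21 CpG dinucleotides and 6 GGGCGG matches, some of them overlapping, but no TGACG. The *Aldh1a1* window had 3 CpG dinucleotides and none of the motifs. Among the members below the minimum, the first listed windows of *Prom1* and *Pou5f1* had 9 and 8 CpG dinucleotides and 1 GGGCGG match each, and that of *Nanog* had 3 CpG dinucleotides and no GGGCGG. Across all 32851 mouse windows of this length, the median was 6 CpG dinucleotides, and TGACGTCA was present in 1.55%, TGACG in 17.8%, GGGCGG in 32.7% and TATAAA in 12.4%. TGACGTCA was in no window of the 6 members, which says only that those letters are absent from these 250 bases.

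The first comparison asked whether the stem cell associated genes differed between the ENZ and the control library. In non-dividing cancer cells, *Klf4*, *Itga6* and *Bmi1* were higher in the ENZ library by 1.23-fold, 1.21-fold and 1.15-fold, and *Ly6a* and *Sox9* were lower, at 0.922 and 0.938 of the control level. The same order of directions appeared in dividing cells, which come from the same libraries and are not an independent repeat. None of the 5 members above 10 CPM was past 1.5-fold in either class, against 1.83% of 8681 genes tested in non-dividing cells and 1.85% of 8695 in dividing cells. Over all cancer cells none of the 5 passed either, against 1.51% of 8758 genes. The median log2 ratio of these 5 members was 0.20 in non-dividing cells, against 0.03 over all genes tested, and 0.24 against 0.06 in dividing cells.

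*Klf4* gave a ratio of 1.23 in non-dividing cells (1.15 to 1.31), and *Klf4* in dividing cells went from 20.5 CPM to 26.4 CPM (ratio 1.29, 1.18 to 1.40). Among the genes tested, 92.9% had a lower ratio than *Klf4* in non-dividing cells and 95.4% in dividing cells. *Itga6* ratios were 1.21 (1.17 to 1.25) and 1.27 (1.22 to 1.31), the latter from 117 CPM to 149 CPM. *Cd44*, the surface receptor that the list leaves out, had ratios of 1.23 and 1.21, close to those of *Itga6* and *Klf4*. *Bmi1* ratios were 1.15 (1.07 to 1.22) and 1.18 (1.10 to 1.27). *Bmi1* works in a complex, and 11 of 15 other PRC1 genes were tested in each class, with none past 1.5-fold and median log2 ratios of 0.09 and 0.12.

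*Ly6a* had the lowest ratio of the 5 members above 10 CPM. Its ratio was 0.922 in non-dividing cells (0.897 to 0.947) and 0.841 in dividing cells (0.812 to 0.872), where the level went from 146 CPM to 122 CPM. Only 7.61% of the genes tested in dividing cells had a lower ratio than *Ly6a*. *Sox9* ratios were 0.938 (0.906 to 0.971) and 0.947 (0.901 to 0.995), which are small beside the spread of all genes, of which 28.7% and 27.1% lay lower. Leaving out the stromal cells changed none of these directions: *Ly6a* then had ratios of 0.92 and 0.85, and *Klf4* had 1.21 and 1.33. *Aldh1a3*, below the minimum level, had ratios of 1.08 (0.86 to 1.35) and 1.09 (0.915 to 1.29). The 1.90-fold difference of *Aldh1a1* in non-dividing cells (1.13 to 3.28) rested on the stromal cells, because 5 UMIs in each library remained without them. In dividing cells *Aldh1a1* had 10 and 6 UMIs, *Pou5f1* 2 and 8, and *Nanog* 1 and 0. The *Prom1* ratio in dividing cells, 0.0523 (0.00126 to 0.329), came from the 19 and 1 UMIs of which 16 lay in that 1 control cell.

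**Figure D2:**
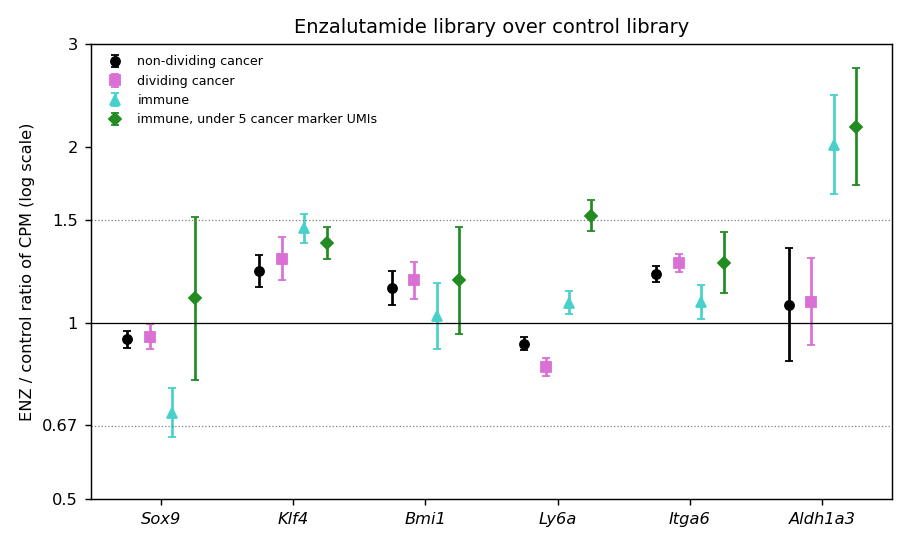
Ratio of the CPM in the ENZ library to that in the control library (log axis) for 6 members in non-dividing cancer, dividing cancer and immune cells, and in immune cells with under 5 cancer marker UMIs, with exact 95% intervals for counting error and dotted lines at 1.5-fold either way. *Klf4*, *Bmi1* and *Itga6* lie above 1 and *Sox9* and *Ly6a* below 1 in both cancer classes, and *Ly6a* reaches 1.52 in the immune cells without cancer markers.

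Other genes of the same pathways were counted in the same way. Of all genes tested, only 1.83% (non-dividing) and 1.85% (dividing) were past 1.5-fold, so nothing is read from these counts about the pathways. Of 19 further pluripotency genes, 3 were tested in each class and none was past 1.5-fold, and *Sox2*, which is not among the members, was counted at only 8.71 and 5.87 CPM in non-dividing cells. Of 14 laminin receptor and laminin genes, 7 were tested, with none past 1.5-fold in non-dividing cells and 1 lower in dividing cells, *Itgb1*, the partner chain of many integrins, at 11.0 and 6.42 CPM. *Itgb1* was above the 10 CPM minimum in the control library alone, so nothing is read from this count. Their median log2 ratios were 0.20 and 0.25. None of the 5 retinoic acid genes tested, of the 3 *Ly6* family genes, or of the basal and stem cell genes of prostate (11 tested in non-dividing and 9 in dividing cells) was past 1.5-fold between libraries. The basal factor *Trp63* had 6 and 7 UMIs in all non-dividing cells.

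The second comparison set dividing against non-dividing cancer cells within each library. Here *Sox9* was lower in dividing cells by more than 1.5-fold in both libraries, the only one of the 5 tested members to pass. *Sox9* was at 70.6 CPM in dividing and 113 CPM in non-dividing control cells, a ratio of 0.626 (0.600 to 0.654), and at 66.8 and 106 CPM in ENZ cells, with a ratio of 0.632 (0.606 to 0.660). Among all genes tested, 7.75% (control) and 7.47% (ENZ) were lower by 1.5-fold, so 1 of 5 members is not read as a property of the list. *Klf4* lay just inside the limit, at 0.688 (0.634 to 0.746) and 0.722 (0.674 to 0.773). *Ly6a* was lower too, at 0.792 (0.768 to 0.817) and 0.723 (0.700 to 0.746).

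*Bmi1* and *Itga6* went slightly the other way. *Bmi1* ratios were 1.06 (0.986 to 1.14) and 1.10 (1.03 to 1.17), and *Itga6* ratios were 1.06 (1.02 to 1.10) and 1.11 (1.08 to 1.15). *Aldh1a3* had the highest ratio of the members with over 100 UMIs in each library, 2.14 (1.74 to 2.65) for control and 2.16 (1.79 to 2.61) for ENZ cells. Its levels were 5.64 CPM against 2.63 CPM and 6.12 CPM against 2.83 CPM, below the minimum, so it was not counted among the genes tested. It had a UMI in 12.6% of dividing and 4.57% of non-dividing control cells, and in 15.2% and 3.70% of ENZ cells, but dividing cells were deeper. With 8000 UMIs drawn from each cell, *Aldh1a3* was found in 3.36% of dividing and 1.33% of non-dividing control cells. The same shares were 4.88% and 1.43% of ENZ cells, so the direction held at equal depth. Without the stromal cells the *Aldh1a3* ratios were 2.17 and 2.39 and the *Sox9* ratios 0.62 in both libraries. *Aldh1a1* gave 0.530 (0.224 to 1.17) and 0.166 (0.0584 to 0.387), but without the stromal cells it had 3 UMIs in dividing and 5 in non-dividing control cells and 5 in each class of ENZ cells. *Pou5f1* had 2 UMIs in dividing against 9 in non-dividing control cells and 8 against 9 in ENZ cells. *Nanog* had at most 1 UMI in each of these classes, and the *Prom1* ratio of 22.1 (3.52 to 920) in control cells again rested on 1 cell. *Cd44* was at 0.896 and 0.884.

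**Figure D3:**
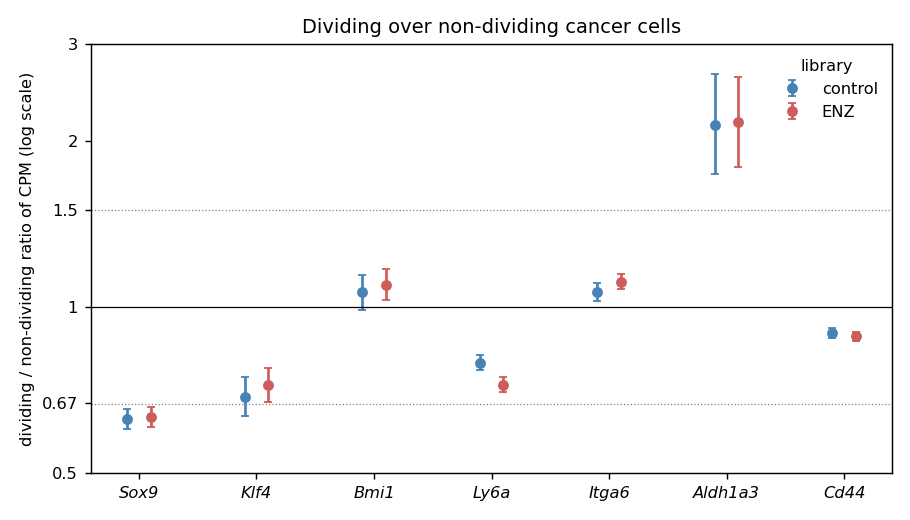
Ratio of the CPM in dividing to that in non-dividing cancer cells (log axis) for 6 members and *Cd44* in the control (blue) and ENZ (red) libraries, with exact 95% intervals for counting error and dotted lines at 1.5-fold either way. *Sox9* lies below the lower line in both libraries at 0.626 and 0.632, *Aldh1a3* lies above 2, and *Bmi1* and *Itga6* lie near 1.

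Within the related lists, the genes past 1.5-fold in both libraries were all lower in dividing cells. In the retinoic acid list they were *Rdh10*, a retinol dehydrogenase that acts one step before the Aldh1a enzymes, with ratios of 0.444 and 0.563, and the receptor *Rarg*, with 0.472 and 0.509, out of 5 tested. In the basal and stem cell list they were *Dclk1*, a kinase of tuft cells, with 0.535 and 0.396, and *Sox5*, a partner of Sox9 in cartilage, with 0.514 and 0.379, out of 10 (control) and 11 (ENZ) tested. *Itgb1* had ratios of 0.620 and 0.395, as 1 of 7 laminin receptor genes. *Itgb1* in the ENZ library and *Dclk1* in both libraries were above the 10 CPM minimum in non-dividing cells alone. These counts stand beside the 7.75% and 7.47% of all genes that were lower by as much, and nothing is read from them about the lists. No PRC1, pluripotency or *Ly6* family gene tested (10 and 11, 3, and 3) was past 1.5-fold.

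How widely the members were found was compared after each cell was thinned to 8000 UMIs, which removes the difference in depth. In non-dividing cells, *Ly6a* had a UMI in 64.7% of control and 60.1% of ENZ cells, *Itga6* in 48.2% and 54.0%, and *Sox9* in 46.7% and 47.7%. *Bmi1* was found in 18.4% and 22.1%, and *Klf4* in 16.1% and 19.3%. Without thinning these shares were higher, for example 67.2% and 72.5% for *Sox9*. At the same 8000 UMIs, *Sox9* had a UMI in 1.86% of 1023 control and 3.20% of 593 ENZ immune cells without cancer markers, while shallower immune cells (3338 and 2669) had to be left out. *Bmi1* was found in 5.57% and 7.42% of these immune cells and *Itga6* in 14.6% and 17.5%. The shares were 29.9% and 37.4% for *Ly6a* and 36.0% and 43.2% for *Klf4*, so the *Klf4* share was higher in immune than in cancer cells. Barcodes with 10 to 100 UMIs, which hold free RNA, carried the members too. Their summed levels were 175 and 164 CPM for *Ly6a*, 66.9 and 82.3 CPM for *Itga6*, 41.4 and 66.3 CPM for *Sox9*, 43.6 and 56.0 CPM for *Klf4*, and 26.6 and 30.4 CPM for *Bmi1*. For *Ly6a*, *Klf4* and *Bmi1* these were near or above the levels in cancer cells, but such barcodes held few UMIs. *Ly6a*, the highest of the members there, had 0.0094 and 0.0112 UMIs per such barcode. Its mean was 1.49 and 1.40 UMIs per non-dividing cancer cell thinned to 8000 UMIs. The part of free RNA in the shares was not tested.

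Counts of *Ly6a*, *Klf4*, *Sox9* and *Itga6* were spread more widely between cells than those of most genes of like mean, and *Bmi1* was not. The variance of the thinned counts divided by their mean, which is 1 for counting alone, was 3.05 in control and 3.19 in ENZ non-dividing cells for *Ly6a*. It was 2.30 and 2.67 for *Klf4*, 2.18 and 1.96 for *Sox9*, and 1.78 and 1.62 for *Itga6*. The medians of 100 genes of like mean were 1.32 and 1.25 for *Ly6a*, 1.08 and 1.09 for *Klf4*, 1.22 and 1.16 for *Sox9*, and 1.19 and 1.14 for *Itga6*. Much of the *Ly6a* value rested on the stromal cells, without which it was 1.86 and 2.19 (2503 and 3015 cells). *Klf4* then gave 1.99 and 1.95, whereas *Sox9* (2.18 and 1.95) and *Itga6* (1.76 and 1.59) hardly moved. *Bmi1* gave 1.08 and 1.05, about the median of 100 genes of like mean (1.07 in each library), so its spread was close to theirs. In dividing cells the values were 1.87 and 1.75 for *Ly6a*, 1.58 and 1.35 for *Klf4*, 1.70 and 1.37 for *Sox9*, and 1.31 and 1.61 for *Itga6*. These were below the values of all non-dividing cells, but for *Ly6a* in the control library and *Itga6* in the ENZ library not below those of non-dividing cells without the stromal cells.

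Counts of the members were nearly uncorrelated across cells, though low counts limit what this shows. Across cells, the Pearson correlation of the log thinned counts of any pair of the 5 members lay between -0.050 and 0.066 in non-dividing cells of both libraries (2558 and 3081 cells, which share their library). All 5 were found in 11 of 2558 control and 18 of 3081 ENZ cells, and the most common number was 2, in 38.2% and 37.3% of cells. Thinned means ran only from 0.210 UMIs (*Bmi1*) to 1.49 UMIs (*Ly6a*) per non-dividing control cell. Counting noise at such means draws a correlation towards 0 and limits how many members are found in a cell. These values therefore do not show whether the genes are expressed together. Over about 3275 genes of at least 50 CPM, only *Ly6a* had others with a correlation of 0.2 or more in both libraries. These were *Ly6c1*, its neighbour in the same gene family, at 0.36 in each, *Fth1*, the ferritin heavy chain, at 0.21 and 0.24, and *Ly6e*, another family member, at 0.21 in each. Without the stromal cells the *Ly6c1* value was 0.33 and 0.32, the *Fth1* value 0.19 and 0.21 and the *Ly6e* value 0.21 and 0.22, and whether shared reads of similar genes add to it was not tested.

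Across keratin content, by contrast, *Itga6* rose with the keratin share. How many of all genes rose or fell as much was not counted, so this gradient is not read as unusual. Non-dividing cells of both libraries were cut into quartiles by the share of *Krt8* and *Krt18* among their UMIs. *Itga6* went from 82.0 CPM in the lowest to 134 CPM in the highest quartile of control cells (ratio 1.63, 1.51 to 1.76) and from 86.1 CPM to 169 CPM of ENZ cells (ratio 1.96, 1.83 to 2.11). Its ratio hardly moved without the stromal cells, at 1.59 and 1.93. *Cd44* gave 1.36 and 1.26. *Ly6a* gave 1.05 (0.997 to 1.11) and 0.888 (0.841 to 0.938). The stromal cells lay mostly in the lowest quartile, which went from 764 to 715 control and from 646 to 585 ENZ cells when they were left out. Without them *Ly6a* went from 140 to 189 CPM in control cells (ratio 1.35, 1.27 to 1.43) and from 122 to 167 CPM in ENZ cells (1.37, 1.28 to 1.47). The *Klf4* ratio went likewise from 1.02 to 1.37 (1.18 to 1.59) in control cells and from 0.664 to 1.04 in ENZ cells. *Sox9* was the one member whose interval lay below 1 in both libraries with and without stromal cells, with ratios of 0.913 and 0.830 with them and 0.860 and 0.755 without. *Bmi1* gave 1.01 in each library. *Aldh1a3* gave 1.78 and 1.22 with the stromal cells and 2.15 (1.26 to 3.81) and 3.11 (1.66 to 6.46) without. Median depth rose with the quartile too, from 14504 to 26285 UMIs in control and from 14376 to 25476 UMIs in ENZ cells, and its part in these ratios was not tested.

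**Figure D4:**
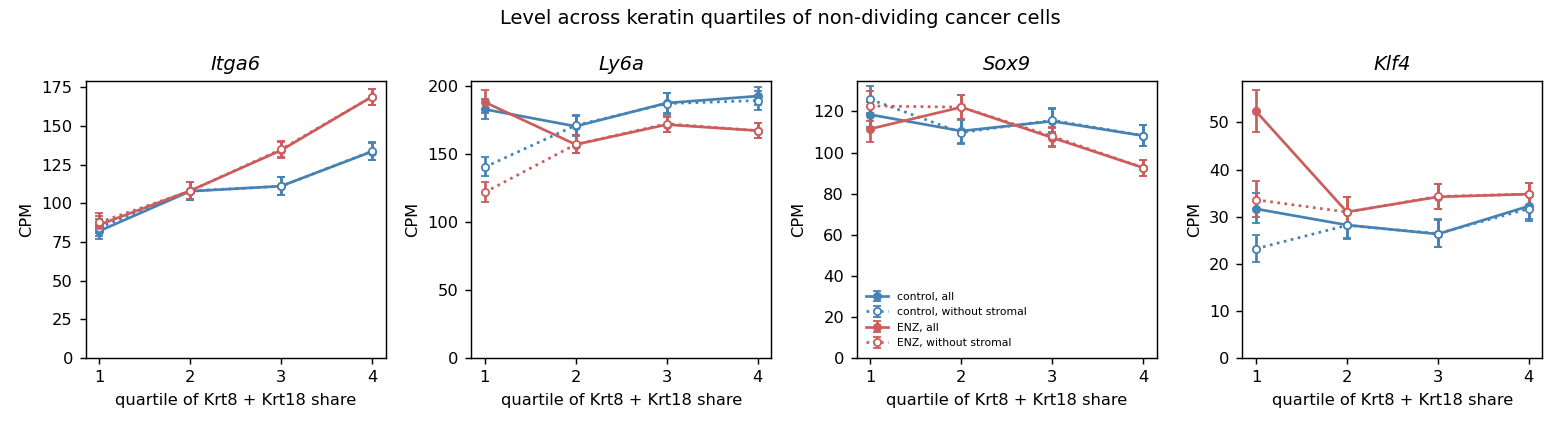
Level (CPM) of *Itga6*, *Ly6a*, *Sox9* and *Klf4* in quartiles of the *Krt8* and *Krt18* share of non-dividing cancer cells, with exact 95% Poisson intervals, in the control (blue) and ENZ (red) libraries, for all cells (filled, solid) and without fibroblast-marker and endothelial-marker cells (open, dotted). *Itga6* climbs to 134 and 169 CPM in the fourth quartile, and the first quartile of *Ly6a* drops to 140 and 122 CPM when the stromal cells are left out.

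The third comparison set cancer against immune cells. *Sox9*, *Itga6* and *Bmi1* were higher in cancer cells by more than 1.5-fold in both libraries, where 31.2% (control) and 32.6% (ENZ) of the genes tested were higher by that much. *Klf4* was lower, as were 20.7% and 22.8% of genes. *Sox9* gave ratios of 2.75 (2.60 to 2.91) in control and 3.77 (3.47 to 4.11) in ENZ cells. For *Itga6* it was 2.1 and 2.38, for *Bmi1* 1.94 and 2.18, for *Klf4* 0.430 and 0.376, and for *Ly6a*, which did not pass, 1.45 and 1.21. Of the members below the minimum, *Aldh1a3* gave 0.872 (0.733 to 1.04) and 0.449 (0.383 to 0.528), and *Aldh1a1* gave 0.746 (0.407 to 1.41) and 2.1 (0.910 to 5.97). *Prom1* gave 0.420 (0.214 to 0.822) from 20 UMIs on each side in control cells and 0.181 (0.0438 to 0.713) from 5 and 6 UMIs in ENZ cells. *Pou5f1* gave 0.308 (0.128 to 0.717) from 11 and 15 UMIs and 0.617 (0.232 to 1.91) from 17 and 6, and *Nanog* had at most 3 UMIs on a side. These 5 members were not counted among the genes tested. The median log2 ratio of all genes was 0.29 and 0.26, above 0, and whether these ratios carry an offset of that size was not tested.

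The mixed barcodes carried most of the *Sox9* in the immune gate. Over the whole immune gate *Sox9* stood at 33.9 CPM (control) and 23.8 CPM (ENZ), but at 3.65 and 4.03 CPM in those with under 5 cancer marker UMIs. Set against these unmixed immune cells, *Sox9* in cancer cells gave ratios of 25.5 (20.8 to 31.7) and 22.3 (17.7 to 28.5). *Sox9* was above the 10 CPM minimum in the cancer cells alone, so these ratios are given as values only. *Itga6* gave 4.95 and 4.81, *Bmi1* 3.57 and 3.49, and *Klf4* 0.340 and 0.315. *Bmi1*, at 7.94 and 9.40 CPM in these immune cells, was likewise above the minimum in cancer cells alone, so nothing is read from its ratios. *Ly6a* then passed 1.5-fold in the control library at 2.12 (2.03 to 2.23) but not in the ENZ library at 1.26 (1.2 to 1.32), and the *Aldh1a3* ratio in the ENZ library was 0.389 (0.328 to 0.462), which is given as a value only because it reached 10 CPM in those immune cells alone. Of all genes tested this way, 44.4% (control) and 41.3% (ENZ) were higher in cancer cells by 1.5-fold, and 26.2% and 26.3% were lower. The lower *Sox9* of the ENZ immune class (ratio 0.703, 0.637 to 0.774) therefore went to 1.10 (0.80 to 1.52) without them. *Klf4* kept its difference, from 75 to 103 CPM without mixed barcodes (ratio 1.37, 1.28 to 1.46) and from 59.3 to 86.0 CPM with them (1.45, 1.37 to 1.54). *Ly6a* went from 78.2 to 119 CPM without mixed barcodes (1.52, 1.43 to 1.62) and from 115 to 124 CPM with them (1.08, 1.03 to 1.13). None of the 5 tested members was past 1.5-fold between libraries over all immune cells, against 7.11% of genes. Without mixed barcodes *Ly6a* was higher by that much, against 5.10% of genes. *Aldh1a3* was at 4.61 and 9.30 CPM in all immune cells (ratio 2.02, 1.66 to 2.45) and at 4.96 and 10.7 CPM without mixed barcodes (2.17, 1.72 to 2.73). It reached the minimum in the ENZ library alone, so it is not read as a call, and its UMIs (125 and 192) rested on few cells, since 67 of the 192 ENZ UMIs lay in 1 barcode and 33 in 1 macrophage.

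Immune cells without cancer markers were then divided by marker UMIs into host classes. Fibroblasts and endothelial cells were classed apart from this division, at 100 or more fibroblast and 20 or more endothelial marker UMIs. A T cell needed 3 or more UMIs of *Cd3d*, *Cd3e*, *Cd3g*, *Trac* and *Trbc2*, a macrophage 10 or more of *C1qa*, *C1qb* and *C1qc*, and a monocyte 10 or more of *Ly6c2*, *Chil3*, *Ccr2*, *Plac8* and *F13a1*, with no other class passing. No class passed in 1594 control and 1016 ENZ barcodes, and the B-cell (11 and 6) and mast cell (8 and 4) classes were too small to describe. *Ly6a*, which activated T cells carry, differed between the libraries in the T-cell class. *Ly6a* stood at 171 CPM in 268 control cells and 340 CPM in 426 ENZ cells (ratio 1.98, 1.71 to 2.30), where 13.5% of genes were higher by 1.5-fold. It had a UMI in 39.2% and 60.1% of these cells, at median depths of 4241 and 4360 UMIs. The ratio was 4.18 in conventional dendritic cells (1.82 to 10.4) and 2.43 in NK cells (1.16 to 5.18), with intervals that overlap that of the T-cell class. The dendritic and NK classes were small, with 72 and 38 and with 146 and 65 cells. They held 9 and 20 and 15 and 18 *Ly6a* UMIs, and no share of all genes was counted for them. *Ly6a* in neutrophils was at 28.0 and 21.0 CPM (ratio 0.75, 0.33 to 1.57). In monocytes, with 655 and 861 cells, *Ly6a* was lower in the ENZ library, at 105 and 82.9 CPM (ratio 0.79, 0.69 to 0.91). The change over all immune cells thus joined classes that went in opposite directions, and the T-cell class was also larger in the ENZ library.

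*Klf4*, which takes part in monocyte and macrophage differentiation, was counted in macrophages, monocytes and fibroblasts. In macrophages it was at 109 CPM in 534 control and 235 CPM in 231 ENZ cells (ratio 2.16, 1.89 to 2.46), where 18.6% of genes were higher by 1.5-fold. In monocytes it was at 71.8 and 100 CPM (1.40, 1.2 to 1.62), and in barcodes with markers of both at 134 and 176 CPM (1.31, 1.14 to 1.52). *Klf4* was thus higher in the ENZ library in macrophages, in monocytes and in the barcodes with markers of both. In neutrophils it was at 24.4 and 16.8 CPM, from 27 and 8 UMIs (ratio 0.69, 0.27 to 1.56). In the T-cell class *Klf4* was at 30.7 and 41.3 CPM, with an interval of the ratio that includes 1 (0.93 to 1.98). *Aldh1a3* in macrophages was at 6.59 and 26.8 CPM, but its UMIs sat in 1.5% and 1.73% of the cells.

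Of the classes described, fibroblasts had the highest levels of *Ly6a* and *Aldh1a1*, and endothelial cells had the highest levels of *Itga6*. In fibroblasts (75 and 73 cells), *Ly6a* stood at 567 and 703 CPM (ratio 1.24, 1.13 to 1.35), *Klf4* at 114 and 186 CPM (1.64, 1.36 to 1.97) and *Aldh1a1* at 19.1 and 33.8 CPM (1.77, 1.12 to 2.83), where 9.33% of genes were higher by 1.5-fold. *Aldh1a3* was at 7.29 and 18.6 CPM (2.56, 1.27 to 5.39) and *Bmi1* at 8.97 and 17.2 CPM (1.92, 0.99 to 3.85). Both reached 10 CPM in the ENZ library alone, so they are not read as calls. *Itga6* and *Sox9* were lower in ENZ fibroblasts, *Itga6* at 43.7 and 17.2 CPM (ratio 0.39, 0.24 to 0.63) and *Sox9* at 56.1 and 33.8 CPM (0.60, 0.42 to 0.86), where 14% of genes were lower by 1.5-fold. These counts were few and uneven, since 9 of the 25 *Itga6* UMIs of ENZ fibroblasts and 21 of the 100 *Sox9* UMIs of control fibroblasts lay in 1 cell each. Of the 49 *Aldh1a1* UMIs of ENZ fibroblasts, 11 also lay in 1 cell. The fibroblast class overlaps the fibroblast-marker cells of the cancer gate. In endothelial cells, of which there were only 28 and 16, *Itga6* stood at 263 and 332 CPM and *Ly6a* at 415 and 242 CPM. *Aldh1a1* had 0 UMIs in endothelial cells, T cells and neutrophils of either library. *Sox9* had 2 and 6 UMIs in the T-cell class and 16 and 8 in macrophages, where *Klf4* had 511 and 411.

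**Figure D5:**
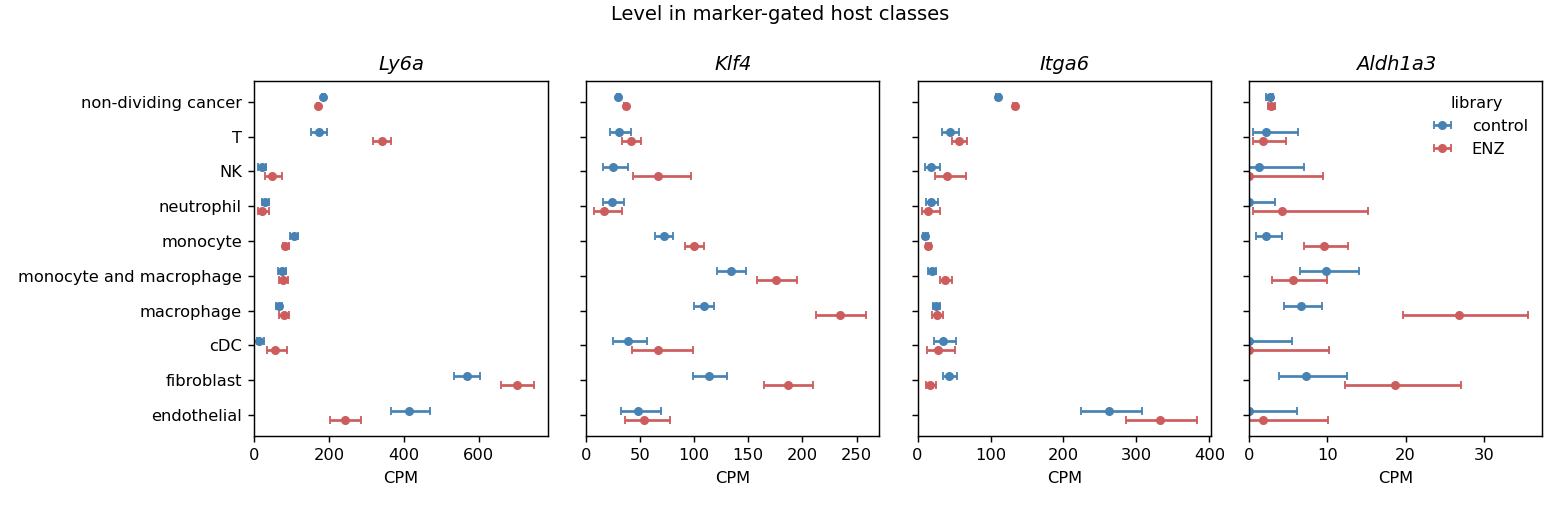
Level (CPM, linear axes from 0) of *Ly6a*, *Klf4*, *Itga6* and *Aldh1a3* in non-dividing cancer cells and in host classes gated by marker UMIs, in the control (blue) and ENZ (red) libraries, with exact 95% Poisson intervals. *Ly6a* stands at 567 and 703 CPM in fibroblasts and at 171 and 340 CPM in the T-cell class, *Klf4* reaches 235 CPM in ENZ macrophages, and *Itga6* is highest in endothelial cells.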

How the data were processed

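Single-cell 3' libraries (10x Genomics) were sequenced from 1 control and 1 ENZ tumor. What the authors deposited were raw counts of UMIs for every barcode, with no cell filter. The labels name Cell Ranger 2.1.1 and mm10, the file headers Cell Ranger 7.2.0, and which of them made the matrices was not settled. The matrices held 170830346 UMIs in 2438568 barcodes (control) and 162030149 in 2239744 (ENZ), and 13854 and 11366 barcodes had the 500 UMIs required here.

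UMIs were summed per class and library and scaled to CPM, with exact Poisson intervals. Ratios had exact conditional binomial intervals, and shares had Clopper-Pearson intervals, all at 95% and for counting error only. Genes with at least 10 CPM on either side were tested, in the sense that they were counted as past the limit at 1.5-fold or not; with 1 library per condition no p-value was computed. No ratio was computed where both sides had 3 UMIs or fewer. No doublet caller was run; barcodes with both *Ptprc* and cancer markers were counted instead. The limits of 100 fibroblast and 20 endothelial marker UMIs, and those of the host classes, were set after the data had been seen.

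The members, gates and lists were chosen with earlier results of these data known. All 10 members were named in every main comparison; of each list, genes past 1.5-fold the same way in both libraries or both cancer classes were named, at most 4 by UMIs; co-varying genes were named where the lower of both correlations was at least 0.2; *Cd44* was named as reference, and *Sox2*, *Trp63* and *Itgb1* between libraries after their values were seen. Gene positions were from GENCODE M21 (GRCm38), where all 10 members matched, and promoters were from RefSeq. In simulated sums for the non-dividing ENZ and control comparison (8555 genes), 95.3% of intervals held the true ratio, 100% of 2-fold changes and 0% of 0.8-fold changes and their inverse were past 1.5-fold. Software was python 3.11.15 with scipy 1.17.1, numpy 2.4.6, pandas 2.3.3 and matplotlib 3.10.9.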

Additional observations from a re-analysis of the deposited data

Results flagged for a closer look

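*Ly6a* had ENZ to control ratios on opposite sides of 1 in cancer cells and in immune cells without cancer markers. They were 0.922 in non-dividing and 0.841 in dividing cancer cells, but 1.52 in immune cells with under 5 cancer marker UMIs. The counting intervals of these ratios do not overlap, and the difference between the classes was not tested because each condition had 1 library. Over all immune cells the ratio was 1.08, and with all immune cells of at least 8000 UMIs it fell below 1 (log2 ratio -0.04). Monocytes, at 0.79 (0.69 to 0.91), lay on the same side of 1 as the cancer cells, and the T-cell class, at 1.98 (1.71 to 2.30), on the other.

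Barcodes of at least 500 UMIs and at most 20% mitochondrial UMIs that passed neither gate, 4961 control and 3370 ENZ barcodes with median depths of 1737 and 1832 UMIs, entered none of the comparisons. In them *Itga6* was higher in the ENZ library by 1.39-fold (1.21 to 1.60), *Klf4* by 1.29-fold (1.17 to 1.42) and *Sox9* by 1.27-fold (1.05 to 1.54). In barcodes with 10 to 100 UMIs, which hold free RNA, *Itga6* stood at 66.9 CPM (control) and 82.3 CPM (ENZ), from 63 and 103 UMIs. *Klf4* stood at 43.6 and 56.0 CPM there, from 41 and 70 UMIs, and *Sox9* at 41.4 and 66.3 CPM, from 39 and 83 UMIs. These levels are given without intervals, so nothing is read from their differences. The part of free RNA in the ratios of the barcodes in neither gate was not tested.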

How the results depend on the processing

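No paired analysis was possible because there was 1 library for each treatment and no test. Of 465 log2 ratios of members recomputed under the alternatives, 392 stayed within the counting interval of the reported value and 4 changed sign: *Bmi1* in immune cells between libraries under median-of-ratios scaling (-0.03), *Ly6a* there with immune cells of at least 8000 UMIs (-0.04), *Sox9* there without barcodes with cancer markers (0.14), and *Ly6a* of cancer against immune cells in the ENZ library under median-of-ratios scaling (-0.01). None of these was past 1.5-fold as reported.

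Without the filter on low values, the members past 1.5-fold between libraries were 2 in non-dividing (*Aldh1a1* and *Prom1*), 3 in dividing, 2 in all cancer and 3 in immune cells instead of 0; between dividing and non-dividing cells they were 5 (control) and 4 (ENZ) instead of 1, and 8 instead of 4 in cancer against immune cells of the ENZ library. No share of all genes was counted without this filter, so nothing is read from these counts about the members. At 2-fold *Sox9* no longer passed, which left 0 in each library. *Klf4* joined *Sox9* in the control library, giving 2, when CPM were averaged over cells, with dividing cells from 5 UMIs, and with non-dividing cells of at most 2 UMIs. In immune cells between libraries, *Aldh1a3* alone passed (1) when mitochondrial, rRNA-like and ribosomal protein genes were kept out of the CPM total, or with at least 8000 UMIs. Without barcodes with cancer markers, 2 passed (*Ly6a* and *Aldh1a3*, the latter above 10 CPM in the ENZ library alone). As reported, *Aldh1a3* was at 4.61 CPM (control) and 9.30 CPM (ENZ), below the minimum, so its passes are not read as calls. Leaving out the fibroblast-marker and endothelial-marker cells, an alternative chosen after seeing the data, raised the members past 1.5-fold the same way in both libraries across keratin quartiles, counted with no minimum level, from 1 (*Itga6*) to 2, adding *Aldh1a3* (below 10 CPM), and changed no other count of members, the 4 widely spread ones included. No share of all genes was counted for the quartiles, so nothing is read from this count about the members. The other counts stayed within 1.5 times the reported ones, and the shares and spreads thinned to 4000 UMIs kept theirs at 5 and 4 members.

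*Prom1*, *Nanog* and *Pou5f1* had 20 UMIs or fewer in each class, and with 1 library per condition no library was left out in turn.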
